A study of Mus musculus with 12 samples.

Results

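Core enzymes of mitochondrial beta-oxidation were followed in the soleus of mice as a set of 10 genes of the 28997 in the deposited tables. The genes were chosen by name, with earlier results of these data known, and matched by gene symbol. They are the acyl-CoA dehydrogenases Acadvl, Acadl, Acadm and Acads, the subunits Hadha and Hadhb of the mitochondrial trifunctional protein, the hydratase Echs1, the dehydrogenase Hadh, the thiolase Acaa2, and Etfdh, which passes their electrons on. RNA was sequenced from the soleus, a calf muscle of slow and fast oxidative fibres, of 12 mice. The labels describe 4 groups of 3 mice, which are Cdh5Cre-NOX1CKO mice on a high fat diet, Cdh5cre-WT mice on a high fat diet, Cdh5Cre-NOX1CKO mice on chow and Cdh5cre-WT mice on chow, each fed for 8 weeks. By their labels all 4 groups carried a Cre driven by Cdh5, a gene of endothelial cells, so the deletion of Nox1, an NADPH oxidase gene, was directed at endothelium and not at muscle fibres. No age is stated for the mice in the labels.

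The authors' deposited tables name the groups only as G1 to G4, and which code stands for which genotype and diet is not stated in the labels. No difference below is therefore assigned to either. The 4 tables compare G3 with G1, G4 with G2, G4 with G3 and G2 with G1, which answers how a gene differed along each side of the design. The comparison of G3 with G1 has no mouse in common with that of G4 with G2, whereas each of the others shares a group with both of them. The tables give each gene's difference and its total over the 12 libraries, and no value per mouse. Group levels were therefore rebuilt from the total and the log2 differences. Standard errors were taken from each log2 and its p-value (implied standard errors). The implied SD between mice given below was scaled from the implied standard error of G3 against G1. It restates the authors' p-values, is not a measured spread between mice, and gives no separate support for a difference. With the totals taken as normalised reads summed over the 12 libraries, the mean per library was 24905255. Nox1 itself had a total of 25.2 normalised reads over all 12 libraries, too few to check the labels. Transcripts that define slow fibres (Myh7, 10040 CPM, normalised reads scaled to a common library total) and fast fibres (Myh2, 14976 CPM) were abundant, and the liver marker list summed to between 0.0945 and 0.124 CPM in every group.

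Beta-oxidation shortens a fatty acyl-CoA by repeated rounds of dehydrogenation, hydration, a further dehydrogenation and thiolytic cleavage. Each acyl-CoA dehydrogenase acts on its own range of chain lengths and hands electrons through the electron transfer flavoprotein to its dehydrogenase, encoded by Etfdh, and so to the respiratory chain. Long chains are shortened by the membrane-bound trifunctional protein, and shorter ones by the soluble enzymes of the matrix. Oxidative muscle depends on this pathway for much of its energy, and in mouse its genes are known targets of the fatty acid receptors PPARalpha and PPARdelta and of their coactivator PGC-1alpha.

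Of the 10 genes, 9 were higher in G3 than in G1, at an adjusted p under 0.05 as the authors deposited it. The same 9 were higher in G4 than in G2 by that measure. The deposited adjustment covered 28997 genes in G3 against G1 and 14539 in G4 against G2. Adjusted over the same 15494 genes with a total of at least 100, 9 members were called in each. Echs1 was the member that passed in neither. Over all genes with an adjusted p, 49 of 28997 (0.169%) were called higher in G3 against G1 and 149 of 14539 (1.02%) in G4 against G2. These gene sets differ, so the 2 shares are not directly comparable. Among the 1078 genes at least as abundant as Acads, the least abundant member by total, the shares were 2.13% and 3.15%. As the set was chosen with earlier results of these data known, these shares are given for scale and are not a test. The differences were small and close to each other: the member median was a log2 of 0.36 in G3 against G1 and 0.39 in G4 against G2, while the median of all 15494 genes with a total of at least 100 was 0.00 in both. No member was called in G4 against G3 or in G2 against G1. As the tables hold no value per mouse, these calls rest on the authors' p-values, and how these estimate the spread between mice is not stated in the labels or headers. With Student's t on 8 degrees of freedom in place of the normal quantile, 0 members were called in either comparison alone and 5 in their mean.

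**Figure D1:**
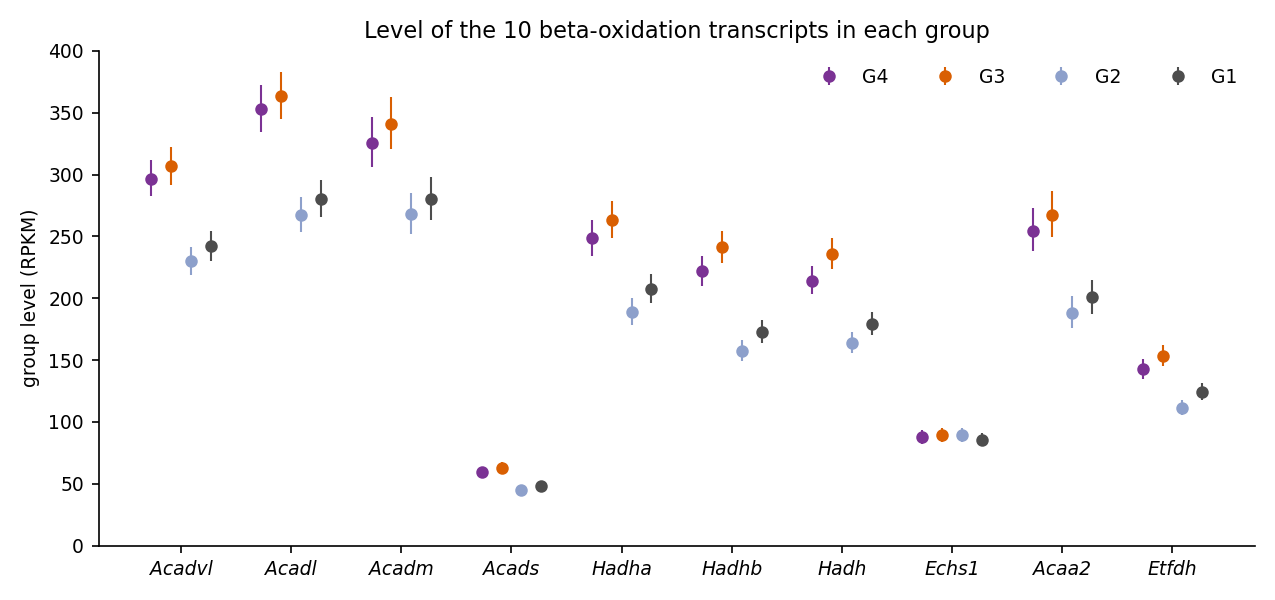
Group level of each gene, in RPKM (normalised reads scaled to a common library total and to kilobases of transcript, vertical axis, from 0), for G4, G3, G2 and G1 (colours, left to right). Points are levels rebuilt from the authors' deposited totals and log2 differences, and bars are 1 implied SD between mice, taken as equal in all groups. The bars come from the authors' p-values and are not a measured spread. For 9 genes G4 and G3 sit above G2 and G1, and for Echs1 the 4 points lie between 85.7 and 89.4.

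Levels scaled to transcript length (RPKM) ordered the genes in much the same way in each group. As counted by the authors, Acadl and Acadm were highest, with 353 and 326 RPKM in G4 and 363 and 341 in G3. They had 267 and 268 in G2, and 280 and 280 in G1. In G2 and G1 these 2 did not differ beyond their implied SD between mice (0.0763 for Acadl and 0.0889 for Acadm, log2). Acadvl followed, then Hadha and Acaa2, then Hadhb and Hadh, both pairs with an order that changed between groups, with Etfdh, Echs1 and Acads below. The whole set summed to 2205 RPKM in G4 and 2324 in G3, against 1711 in G2 and 1821 in G1. By total, the members ranked between position 110 (Hadha) and position 1078 (Acads) of all genes. These values depend on the transcript chosen for each gene, here the longest protein-coding one. The place of Hadhb and the sum also depend on how reads were divided between Hadhb and its near-identical copies, described below. With the copies' reads added, Hadhb had 876 CPM, against 606 for Acadl and 622 for Acadm. The transcripts of these genes have 2048, 1916 and 2047 bases. In whole muscle, fewer cells of a type and less RNA per cell cannot be told apart.

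The acyl-CoA dehydrogenases, which carry out the opening step of each round, were all higher in G4 than in G2 and in G3 than in G1. Acadvl (chromosome 11, 70010183 to 70015411, GRCm38), the membrane-bound very long chain enzyme, stood at 297 RPKM in G4, 307 in G3, 230 in G2 and 242 in G1. Both pairs were separated by more than its implied SD between mice of 0.0717 on the log2 scale, which restates a deposited p-value. In the authors' deposited tables its log2 was 0.34 for G3 against G1 (implied SE 0.0586, adjusted p = 1.44e-05) and 0.37 for G4 against G2 (adjusted p = 3.92e-07). Acadl (chromosome 1, 66830839 to 66863277), the long chain enzyme, had log2 values of 0.37 and 0.40 in the same tables, with adjusted p = 5.29e-06 and 1.96e-07.

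Acadm (chromosome 3, 153922357 to 153944632), the medium chain enzyme, had the smallest difference of the 9 called members. In the authors' deposited tables its log2 was 0.28 in both comparisons (implied SE 0.0726 in G3 against G1), with adjusted p = 0.0464 for G3 against G1 and 0.0151 for G4 against G2. It is also the call most open to the processing: centring G4 against G2 on genes of the respiratory chain left it at 0.22 with adjusted p = 0.105, and removing trends on GC content, length and total left it at 0.25 with adjusted p = 0.0627. Acads (chromosome 5, 115110299 to 115119346), the short chain enzyme, was the least abundant member by total and per kilobase, with 59.4 RPKM in G4, 62.6 in G3, 45.3 in G2 and 48.1 in G1. Its log2 in the authors' deposited tables was 0.38 for G3 against G1 and 0.39 for G4 against G2 (adjusted p = 0.00595 and 0.00108), close to those of the enzymes for longer chains.

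**Figure D2:**
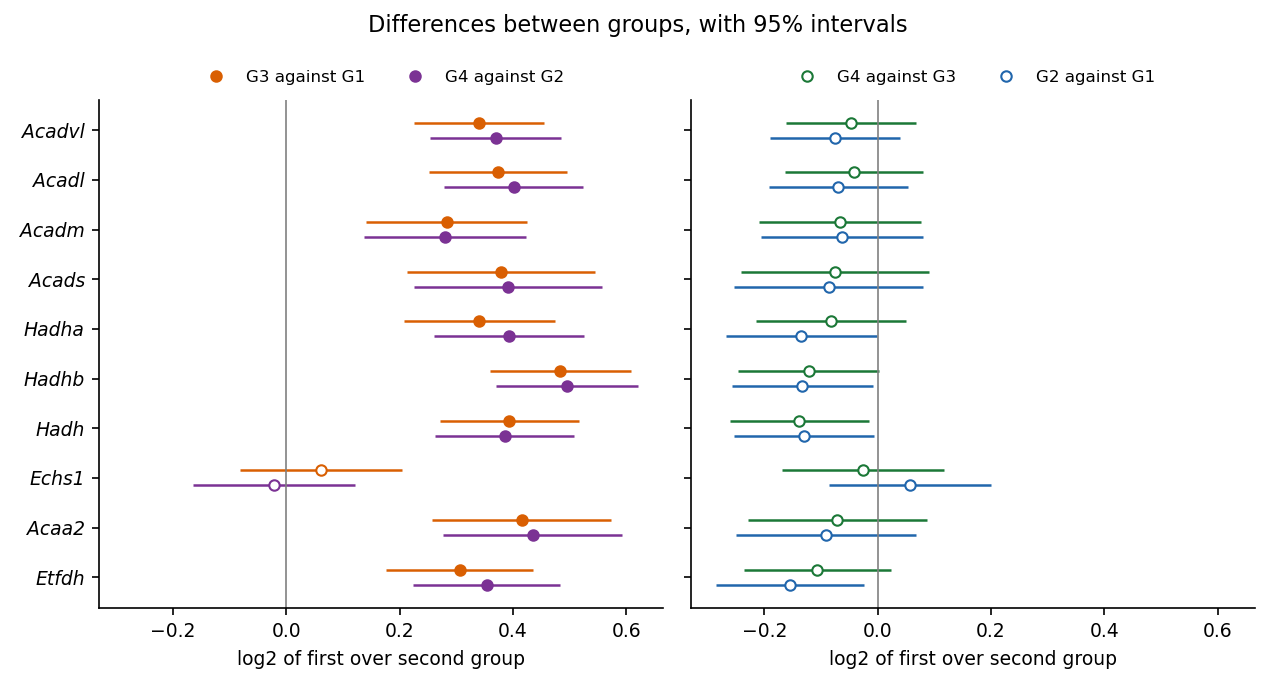
Log2 difference of the first over the second group (horizontal axis) for each gene, with 95% intervals from the implied standard errors; G3 against G1 and G4 against G2 are on the left, G4 against G3 and G2 against G1 on the right, and filled points passed an adjusted p of 0.05. On the left, 9 genes lie between 0.28 and 0.50 while Echs1 lies at 0.06 and -0.02; on the right, all points lie between -0.15 and 0.06 and none is filled.

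Echs1 (chromosome 7, 140105710 to 140116476), the soluble hydratase that adds water to short and medium chain enoyl-CoA, was the exception. Its level was 87.8 RPKM in G4, 89.4 in G3, 89.1 in G2 and 85.7 in G1, so the 4 groups lay within its implied SD between mice of 0.0891 (log2). Its log2 in the authors' deposited tables was 0.06 for G3 against G1 (implied SE 0.0728, adjusted p = 1) and -0.02 for G4 against G2 (adjusted p = 0.979). The 95% interval of the mean of both comparisons ran from -0.08 to 0.12. It lay below the interval of every other member (the lowest lower bound among them was 0.18, for Acadm). As Echs1 was singled out by these same values, this is a description and not a test. Paox, a gene on the opposite strand that overlaps Echs1 by 678 bases, had a total of 1244 normalised reads, against 40941 for Echs1. Acadvl is likewise overlapped by Dvl2 over 2119 bases, with a total of 1813 against 174193 for Acadvl. Whether the authors counted by strand is not stated, so reads from such pairs may not be separated.

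The 250 bases before the RefSeq start sites (GRCm38.p6) of Echs1, Acadvl and Acadm are shown because they are the member promoters that hold the half-site AGGTCA, on either strand, which nuclear receptors of the PPAR and ERR families read; capitals mark it, and in Echs1 they run on over a direct repeat of 2 half-sites spaced by 1 base (direct repeat 1) with 2 mismatches. All 3 genes lie on the minus strand, and the sequences are given 5′ to 3′ along the gene, from chr7:140116422-140116671, chr11:70015429-70015678 and chr3:153944644-153944893.
Echs1: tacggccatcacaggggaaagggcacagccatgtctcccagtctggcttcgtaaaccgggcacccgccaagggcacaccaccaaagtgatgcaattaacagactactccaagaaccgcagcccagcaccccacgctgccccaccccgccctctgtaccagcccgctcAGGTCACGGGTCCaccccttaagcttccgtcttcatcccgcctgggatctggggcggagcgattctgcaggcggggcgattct
Acadvl: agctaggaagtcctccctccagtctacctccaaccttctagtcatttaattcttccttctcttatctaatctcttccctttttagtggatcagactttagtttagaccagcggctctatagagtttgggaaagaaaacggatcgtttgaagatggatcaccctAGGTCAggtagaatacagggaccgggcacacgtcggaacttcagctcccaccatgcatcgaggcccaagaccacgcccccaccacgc
Acadm: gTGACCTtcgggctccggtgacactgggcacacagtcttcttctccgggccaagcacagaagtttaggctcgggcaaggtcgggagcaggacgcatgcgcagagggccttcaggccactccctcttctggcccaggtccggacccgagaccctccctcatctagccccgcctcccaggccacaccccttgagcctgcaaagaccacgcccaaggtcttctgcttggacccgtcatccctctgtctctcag
The half-site covers positions -83 to -78 of Echs1 and -87 to -82 of Acadvl, counted back from the start site, and in Acadm it lies at the far end of the window in the other orientation (tgacct).

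Across the 300-base RefSeq promoters (250 bases before to 50 after the start) that matched 9 of the 10 genes, the half-site AGGTCA was in 3, and in 16.3% of all 32851 promoters. The direct repeat 1 with up to 2 mismatches was in Echs1 alone, the member that was not called, and in 3.86% of all promoters; with up to 1 mismatch or none it was in 0 of the 9 members, against 0.554% and 0.0396% of all promoters. The ERR motif TCAAGGTCA was in none of the 9 and in 0.423% of all. CCAAT was in Hadh and Etfdh (37.4% of all promoters) and GGGCGG in 7 members (35.7% of all). The windows of Hadha and Hadhb overlap, and the only GGGCGG of Hadha (-188 to -183) is also a site of Hadhb (-90 to -85). The set of all promoters was not limited to genes as abundant as the members. The member promoters had a median GC content of 62.3% and 17 CpG dinucleotides, against 52.7% and 7 over all promoters. All motifs were searched on both strands and are descriptions of these windows; the direct repeat of Echs1 overlaps its half-site.

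The trifunctional protein joins Hadha, which carries the long chain hydratase and hydroxyacyl-CoA dehydrogenase activities, to Hadhb, which carries the thiolase. Their genes lie head to head on chromosome 5, Hadha on the minus strand (30118304 to 30155162) and Hadhb on the plus strand (30155248 to 30184593), with 85 bases between the GENCODE genes and 272 between the RefSeq start sites. The 228 bases that both promoter windows share, chr5:30155003-30155230 in GRCm38.p6 on the plus strand, are shown because they lie between the RefSeq start sites of 2 members that were both called; the GENCODE gene of Hadha reaches into them, and capitals mark GGGCGG.
Hadha and Hadhb: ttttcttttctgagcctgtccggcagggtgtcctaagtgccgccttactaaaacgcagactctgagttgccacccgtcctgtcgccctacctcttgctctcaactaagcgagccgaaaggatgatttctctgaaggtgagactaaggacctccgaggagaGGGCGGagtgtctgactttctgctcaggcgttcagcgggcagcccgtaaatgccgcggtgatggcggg
Hadha was at 248 RPKM in G4, 263 in G3, 189 in G2 and 208 in G1. Hadhb was at 222 in G4, 241 in G3, 157 in G2 and 173 in G1. The order of the groups, from highest G3, G4, G1 and G2, was the same for both subunits, and also for every other called member. No member was called in G4 against G3 or in G2 against G1, so the order of G3 and G4, and of G1 and G2, is a description. The genes were measured in the same mice and do not repeat this order independently. For both subunits, G4 and G3 stood above G2 and G1 by more than the implied SD between mice (0.0827 and 0.0778, log2). The log2 of Hadha in the authors' deposited tables was 0.34 for G3 against G1 (adjusted p = 6.48e-04) and 0.39 for G4 against G2 (adjusted p = 4.34e-06). Hadhb had the largest log2 of the 10 members in both of the authors' deposited tables, 0.48 (implied SE 0.0635, adjusted p = 3.78e-10) and 0.50 (adjusted p = 2.58e-11). The Hadhb log2 exceeded that of Hadha by 0.14 in G3 against G1 and by 0.10 in G4 against G2, a difference that was not tested because the tables do not give how both genes vary together.

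A processed copy makes the Hadhb values uncertain. Hadhb-ps is 99.8% identical to Hadhb over 1428 bases, or 69.7% of the Hadhb transcript, and had a total of 140290 normalised reads, more than the 121346 of Hadhb itself. The copy's log2 in the authors' deposited tables was 0.50 for G3 against G1 (adjusted p = 4.08e-10) and 0.38 for G4 against G2 (adjusted p = 5.43e-06), both higher, as for Hadhb. With the reads of Hadhb-ps and of the rare copy Gm9108 added, 53.6% of the reads of the sum came from the copies. The summed log2 was then 0.49 for G3 against G1 and 0.43 for G4 against G2. On this sum Hadhb no longer had the largest log2 in G4 against G2, where Acaa2 also stood at 0.43, and its distance from Hadha (0.39) was smaller. In G3 against G1 the sum still had the largest log2, and its distance from Hadha (0.34) was not smaller. How the authors' tools divided reads between gene and copy cannot be seen in the tables. Among the other members, a search at 90% identity or more over at least 200 bases found a processed copy only for Acadm: Gm5131, 93.5% identical over 681 bases, had a total of 14775 normalised reads against 185842 for Acadm, with log2 values of 0.27 (G3 against G1) and 0.29 (G4 against G2) as deposited in the authors' tables.

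**Figure D3:**
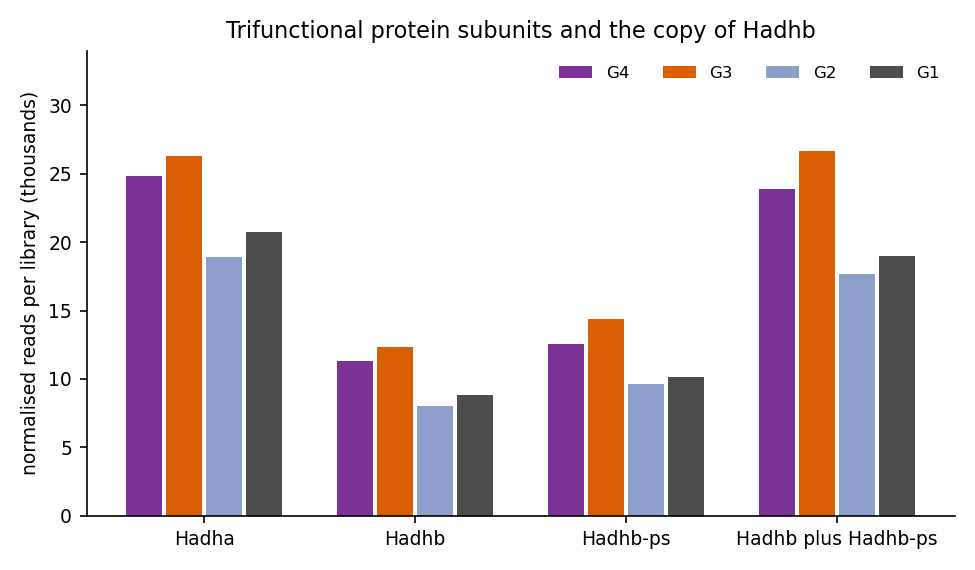
Normalised reads per library (vertical axis in units of 1000 reads, from 0) of Hadha, Hadhb, its copy Hadhb-ps and the sum of Hadhb and Hadhb-ps, in G4, G3, G2 and G1 (bars, left to right; group levels rebuilt from the authors' deposited tables, with no value per mouse). The copy holds more reads than Hadhb in every group, and the sum comes to 23888 in G4 and 26679 in G3, against 17680 in G2 and 18965 in G1, close to Hadha.

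Hadh (chromosome 3, 131233419 to 131272101), the soluble 3-hydroxyacyl-CoA dehydrogenase of the matrix, stood at 214 RPKM in G4, 236 in G3, 164 in G2 and 179 in G1. Its log2 in the authors' deposited tables was 0.39 for both G3 against G1 and G4 against G2 (adjusted p = 9.93e-07 and 8.20e-07). Hadh also had the lowest log2 of all members in G4 against G3, -0.14 in the authors' deposited table, which did not pass the adjusted test. Etfdh (chromosome 3, 79603788 to 79629500), which reduces ubiquinone with the electrons of the acyl-CoA dehydrogenases, stood at 143 in G4, 154 in G3, 112 in G2 and 124 in G1 on the same scale. The authors' deposited tables gave Etfdh a log2 of 0.31 for G3 against G1 (adjusted p = 0.00371) and 0.35 for G4 against G2 (adjusted p = 4.09e-05), the smallest after Acadm among the 9 called genes.

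Acaa2 (chromosome 18, 74779197 to 74806208), the soluble thiolase that closes the round for shorter chains, stood at 255 RPKM in G4, 268 in G3, 188 in G2 and 201 in G1. The levels of G4 and G3 stood above those of G2 and G1 by more than its implied SD between mice (0.0986, log2). From the authors' deposited tables, the log2 of Acaa2 was 0.42 for G3 against G1 (implied SE 0.0805, adjusted p = 4.41e-04) and 0.43 for G4 against G2 (adjusted p = 3.11e-05). Both thiolases, Hadhb and Acaa2, thus had the largest log2 values of the set in both comparisons, as counted by the authors. In the mean of both comparisons the interval of Hadhb (0.40 to 0.58) lay above that of Acadm (0.18 to 0.38), and that of Acaa2 (0.31 to 0.54) overlapped it.

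Averaging G3 against G1 and G4 against G2 gave the same calls with smaller errors. The 9 genes were called higher, where 1.21% of the 15494 genes were, with a member median of 0.38 and values from 0.28 (Acadm) to 0.49 (Hadhb). The difference between both comparisons was tested directly for each member, and 0 were called, against 0.00645% of all genes; 0 members also had an unadjusted p under 0.05, where 4.12% of the 15494 genes did. The member median of this difference was 0.02, or -0.10 once the comparisons were centred on genes of the respiratory chain, and, without that centring, the 95% intervals of all 10 members lay between -0.29 and 0.25. These intervals give the size that a difference could have and still go undetected; they do not show that the comparisons were equal.

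Along the other side of the design nearly all members had values below 0, and none passed the test. In G4 against G3, all 10 log2 values in the authors' deposited table were below 0, with a median of -0.07. There 0 members were called, against 0.0394% called lower of the 17752 genes with an adjusted p. Of the members 1, Hadh, had an unadjusted p under 0.05, where 4.83% of the 15494 genes did. In G2 against G1, 9 of 10 were below 0 with a median of -0.09, and again 0 were called (4 had an unadjusted p under 0.05, where 2.35% of the 15494 genes did), against 0.00345% of all genes called lower. Echs1 was the member not listed in that deposited table, and its rebuilt log2 was 0.06. Centred on genes of the respiratory chain, the member medians were -0.15 in G4 against G3 and -0.05 in G2 against G1, so that their size rests on the scaling. Averaged over both comparisons, 0 members were called (0.0452% of all genes were, in either direction), while 4 members had an unadjusted p under 0.05, where 3.12% of genes did. They were Hadh at -0.13 (95% interval -0.22 to -0.05), Hadhb at -0.13 (-0.22 to -0.04), Etfdh at -0.13 (-0.22 to -0.04) and Hadha at -0.11 (-0.20 to -0.01), and the smallest adjusted p among the members was 0.913. With the reads of its copies added, Hadhb stood at -0.16 in G4 against G3 and -0.10 in G2 against G1. In the same mean, the medians of the macrophage markers (5 of 5 below 0) and erythroid markers (5 of 5 below 0) were -0.30 and -0.45. That of the slow fibre markers was 0.25 (8 of 9 above 0). In these lists 0 were called, and 3, 4 and 6 genes had an unadjusted p under 0.05. Adipocyte markers had a median of -0.31 (1 of 8 above 0), with 0 called and 1 with an unadjusted p under 0.05. Fast fibre and endothelial markers had medians of -0.01 and -0.02. The part of all these lists in the members' values was not tested.

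In the list of 8 partners of electron transfer and of the breakdown of unsaturated chains, 3 genes were called higher in each of G3 against G1 and G4 against G2, and the list medians were 0.18 and 0.26; 6 of the 8 had positive values with an unadjusted p under 0.05 in the mean of both. Decr1, the 2,4-dienoyl-CoA reductase, had log2 values of 0.67 (adjusted p = 1.26e-26) and 0.62 (adjusted p = 5.51e-22) in the authors' deposited tables, above every core member. Ech1, an isomerase of dienoyl-CoA, had 0.71 and 0.69 (adjusted p = 1.16e-07 and 1.26e-07), and Eci2, an isomerase of enoyl-CoA, had 0.35 and 0.46 (adjusted p = 0.00250 and 4.89e-07) in the authors' deposited tables. These enzymes handle double bonds that the core spiral cannot. Eci1, another enoyl-CoA isomerase, was called in the mean of both comparisons alone, at 0.26 (adjusted p = 0.0104). The electron transfer genes of the list, Etfa and Etfb, were not called in either comparison or in the mean (0.13 and 0.16). Acad9 and Hsd17b10 were not called either, at -0.01 and -0.02 in the mean.

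The carnitine shuttle, which brings long chain acyl groups into the matrix, had 6 of 6 positive values in both comparisons. Slc25a20, the carnitine-acylcarnitine translocase, was called in both, with log2 values of 0.36 and 0.43 in the authors' deposited tables (adjusted p = 0.00344 and 1.85e-05). Cpt2, the inner membrane transferase, was also called in both, at 0.35 and 0.43 (adjusted p = 0.00600 and 2.68e-05) in the authors' deposited tables. Cpt1a, the liver form of the outer membrane transferase, was called in G4 against G2, at 0.86 (adjusted p = 0.00251), and had 0.46 with adjusted p = 1 in G3 against G1, in the authors' deposited tables. Cpt1b, the muscle form and the more abundant of the pair by total, was called in the mean of both comparisons alone, at 0.20 (adjusted p = 0.0133), as was Crat, the carnitine acetyltransferase, at 0.26 (adjusted p = 0.00357).

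Peroxisomal beta-oxidation, which shortens very long chains outside mitochondria, had list medians of 0.14 in G3 against G1 and 0.17 in G4 against G2 over 7 genes. Hsd17b4, its bifunctional hydratase and dehydrogenase, was called higher in G4 against G2 at 0.35 (adjusted p = 0.0117) and had 0.27 (adjusted p = 0.428) in G3 against G1, in the authors' deposited tables. Acyl-CoA dehydrogenases of amino acid breakdown and other substrates, relatives of the core dehydrogenases, had list medians below 0, -0.10 in G3 against G1 and -0.13 in G4 against G2. Acadsb, which acts on a product of isoleucine, was called lower in G4 against G2 at -0.31 (adjusted p = 0.0124), and Ivd, which acts on a product of leucine, at -0.29 (adjusted p = 0.0191), in the authors' deposited tables. In G3 against G1 none of these 7 was called, and Acadsb and Ivd stood at -0.22 and -0.18 in the authors' deposited table.

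**Figure D4:**
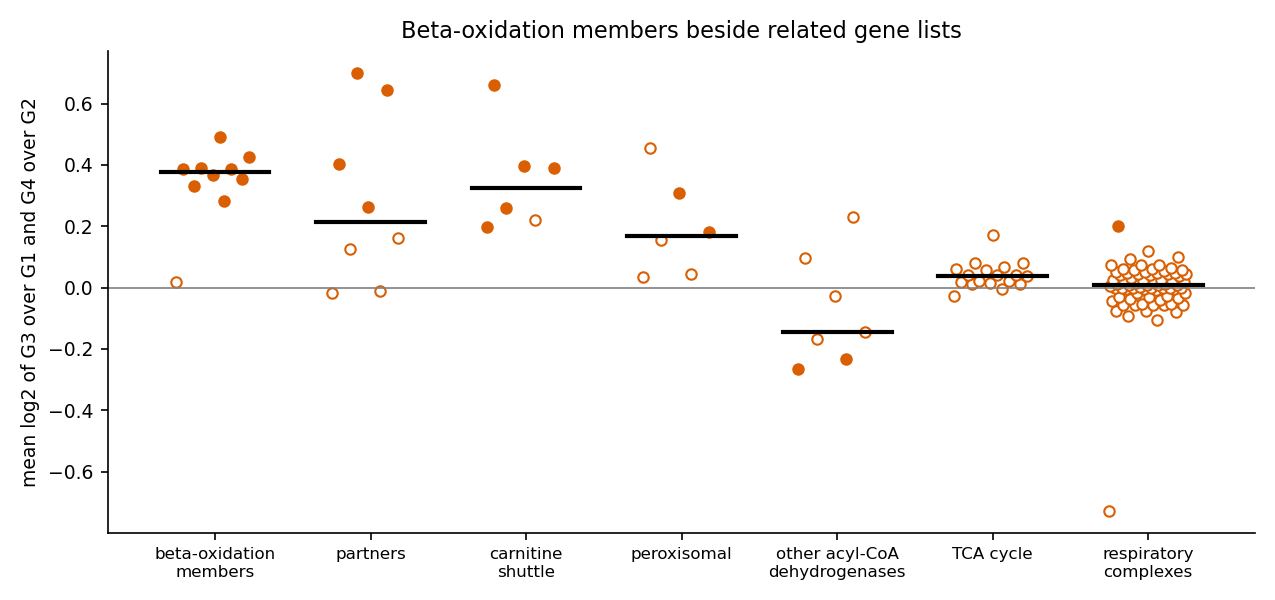
Mean log2 of G3 over G1 and G4 over G2 (vertical axis) for each gene with a total of at least 100 in 7 lists (horizontal axis); filled points passed an adjusted p of 0.05 over 15494 genes, and black lines are list medians. The core members have a median of 0.38, the carnitine shuttle 0.32, the partners 0.21, the TCA cycle 0.04 and the respiratory complexes 0.01.

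Lists of the TCA cycle and the respiratory chain gave 1 call in these comparisons and their mean. Of 18 TCA cycle genes, which oxidise the acetyl-CoA that beta-oxidation yields, 0 were called in any comparison by the authors' adjusted p (2 had an unadjusted p under 0.05 in each of G3 against G1 and G4 against G2), and the median of their mean log2 was 0.04. Of 74 nuclear genes of respiratory complexes I to V, 0 were called in either comparison alone (3 and 4 had an unadjusted p under 0.05) and 1, Ndufa3 at 0.20 (adjusted p = 0.0379), in the mean of both, where 1.21% of all genes were called higher, with a median of 0.01. The medians of the respiratory genes by comparison were -0.05 in G3 against G1, 0.06 in G4 against G2 and 0.07 in G4 against G3. After G4 against G2 was centred on them, 8 of the 10 core members were called, Acadm being the call lost.

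Transcripts of regulators gave no call. The list held 14 genes for PPARs, their RXR partners, ERRs, coactivators, a corepressor and mitochondrial sirtuins. Of these, 0 were called in any of the 4 comparisons or in the means. Over all genes, 0.169% were called higher in G3 against G1 and 1.02% in G4 against G2, so 0 of 14 lies near these shares. An unadjusted p under 0.05 was found for 0 in G3 against G1 and 2 in G4 against G2. According to the authors' deposited tables, Ppara had log2 values of -0.07 for G3 against G1 and 0.07 for G4 against G2, and Ppard had 0.00 and -0.18. Ppargc1a, which encodes PGC-1alpha, had -0.44 and 0.61 (adjusted p = 1 and 0.810), and Esrra had -0.03 and 0.21, in the authors' deposited tables. Implied standard errors for G3 against G1 were 0.356 for Ppara and 0.504 for Ppargc1a, against 0.109 for Ppard and 0.0839 for Esrra. Their medians were 0.139 over the 14 regulators and 0.0669 over the core members. A change of the members' size could therefore have gone undetected in Ppara and Ppargc1a. At the adjusted threshold it could also have been missed in other regulators with errors above those of the members, Ppard among them. These 4 regulators were picked by name after values were seen, and the tables measure their transcripts, not their activity.

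Markers of other cell types and fibre types varied between the groups, and their part in the members' differences was not tested. Fast fibre markers were below 0 in 11 of 11 in the mean of G3 against G1 and G4 against G2, with a median of -0.26 and 1 called (Casq1, -0.26, adjusted p = 0.0298), and summed to 44724 CPM in G4 and 42880 in G3, against 48882 in G2 and 51999 in G1. Slow fibre markers had a median of -0.14 in the same mean, with 0 called, and summed to 26095 in G4 and 24206 in G3, against 30828 in G2 and 24136 in G1. Of the slow markers 1 had an unadjusted p under 0.05 in this mean, and the medians of both fibre lists were below 0 where that of the core members was 0.38. Adipocyte markers summed to 286 CPM in G4, 246 in G3, 217 in G2 and 282 in G1, of which Fabp4, also an endothelial gene, made up most. They had a median of -0.23 in G3 against G1, opposite to the core members, and of 0.53 in G4 against G2, where Lipe (0.75, adjusted p = 7.85e-06) and Fabp4 (0.37, adjusted p = 0.0254) were called in the authors' deposited table. Of the brown adipocyte markers, Elovl3 was at 0.0132 CPM, and Cidea, at 6.43, was called in both comparisons at 0.83 and 0.82 (adjusted p = 0.0281 and 0.0138, authors' deposited tables). Endothelial markers summed to between 382 (G2) and 450 (G4) CPM, macrophage markers to between 38.5 (G4) and 54.2 (G1), and erythroid markers to between 112 (G2) and 179 (G1). In G4 against G2 the medians were 0.21 for the endothelial list (6 of 6 above 0) and 0.40 for the erythroid list (5 of 5 above 0), the same sign as the core members, and in G3 against G1 they were -0.02 and 0.02. In each of these 3 lists 0 genes were called in either comparison, and 1, an endothelial gene in G4 against G2, had an unadjusted p under 0.05.

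Outside all of these lists, the genes whose log2 values in G3 against G1, G4 against G2 and G2 against G1 lay nearest to the member medians (0.36, 0.39 and -0.09) were Gramd3, Vwa8, P3h4, Plbd1 and Ptp4a1, of 9414 protein-coding candidates with a total of at least 1000. Their Euclidean distances over these 3 values ran from 0.0295 for Gramd3 to 0.0606 for Ptp4a1. Vwa8, at 207 CPM the most abundant of the 5, was called in G3 against G1 and also in G4 against G2 (authors' deposited tables, 0.40 and 0.36, adjusted p = 0.00454 and 0.00734), as was Plbd1 (0.38 and 0.38, adjusted p = 0.0177 and 0.00609). Ptp4a1 was called in G4 against G2 alone (adjusted p = 0.0221, against 0.826 in G3 against G1). Gramd3, the nearest, and P3h4 were called in neither (adjusted p = 0.161 and 0.268 in G4 against G2). The 5 genes were picked by these same log2 values, so their calls are no separate result. Likeness here is a description over 3 comparisons of the same 4 groups.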

How the data were processed

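Stranded mRNA libraries (KAPA kit, per the labels' protocols) came from the soleus of 12 mice. The submitters' processing notes name Bowtie2 (2.1.0), RSEM (1.2.15) and edgeR, with no edgeR version and no roles, and mm10 or GRCm38. The 4 tables the authors deposited hold a total for each gene (a signal: normalised reads summed over 12 libraries), a p-value, its step-up false discovery rate, a signed fold score and a log2, as the file headers show. False discovery rates left blank there (14458 genes of G4 against G2 and 11245 of G4 against G3) stayed blank. With no value per library, the planned count test was replaced by the authors' p-values, whose estimate of the spread between mice is not stated. The labels give no batch.

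Implied standard errors were the log2 divided by the normal quantile of p. The deposited table of G2 against G1 holds 15652 of 28997 genes and no log2 above 0, so missing values were rebuilt by adding G4 against G3 to G3 against G1 and subtracting G4 against G2; on 7792 genes that the table does hold, the rebuilt log2 differed by at most 1.02e-14. Means of 2 comparisons and their difference were adjusted by Benjamini-Hochberg over 15494 genes with a total of 100 or more, a mean of 8.33 reads per library. Called means an adjusted p under 0.05. Group levels split the total by the log2 differences. Lengths and 1-based coordinates came from GENCODE M21 (28063 genes matched), promoters from RefSeq, and copies from blastn 2.17.0. Scripts in Python 3.11.15 with pandas 2.3.3 and scipy 1.17.1 were tested on simulated data.

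The members and lists were chosen with earlier results of these data known. Named genes were the members, the called genes of each list (up to 6, apart from a result that is not reported here) and the 5 nearest in pattern; Ppara, Ppard, Ppargc1a, Esrra, Hadhb-ps, Gm5131, Gm9108, Nox1, Dvl2 and Paox were named after their values were seen.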

Additional observations from a re-analysis of the deposited data

How the results depend on the processing

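The counts of members called in G3 against G1, in G4 against G2 and in the mean of both stayed between 7 and 9 under a stricter threshold, an added minimum fold, other filters on total, centring on all genes or on respiratory chain genes, and removal of trends on GC content, length and total, and 0 stayed called along the other side of the design and for the difference between comparisons. Student's t with 8 degrees of freedom left 0 members called in G3 against G1, 0 in G4 against G2 and 5 in the mean of both; the authors' own spread estimate is not known. Centring on respiratory chain genes moved the member median to -0.15 in G4 against G3 (reported -0.07), -0.05 in G2 against G1 (reported -0.09) and -0.10 for the difference between comparisons (reported 0.02, and -0.03 with the trends removed). The member medians of G3 against G1 and G4 against G2 ran from 0.33 to 0.41 under the scaling and trend settings and without Hadha and Hadhb. Exon unions were used for levels alone and cannot move a log2. Of the single members, 30 values fell short of the threshold under an alternative, 22 of them under Student's t the others being Acadm under a stricter threshold, an added minimum fold, the respiratory centring or the trend setting, and Etfdh under the minimum fold in G3 against G1. No sign turned in a called value. Adding the reads of near-identical copies to Hadhb was chosen after seeing the data. No mouse could be left out and no paired analysis was possible because the tables hold no value per library. Depth did not limit the members, at a mean of 2510 reads per library or more; the 12 mice and the missing values per mouse do.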
